A study of Mus musculus with 2 samples.

Results

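Chemokine and chemokine receptor genes were taken from the GENCODE vM21 annotation as the protein-coding genes whose symbols start with Ccl, Cxcl, Ccr or Cxcr followed by a digit, together with Cx3cl1, Cx3cr1, Xcl1 and Xcr1. This gave 56 genes of 21938 protein-coding genes, of which 37 encode ligands and 19 encode receptors. A Myb peak was assigned to a gene when its summit, the base with the highest pileup, lay in the gene body or within 10 kb of it. By this rule 61 of the 25793 Myb peaks lay at a chemokine or chemokine receptor gene.

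The peaks came from ChIP-Seq of Myb, a transcription factor needed for normal blood formation, in WT lineage-negative (Lin-) bone marrow cells. Lin- cells are marrow cells depleted of mature blood cells among which hematopoietic stem and progenitor cells (HSPCs) are frequent, and per the labels their purity was above 80%. The antibody was Abcam ab76009, and a precipitate of the same kind of cells with rabbit IgG served as the background. There was 1 Myb library and 1 IgG library, and no comparison here has a replicate or a test. In the study's methods, the mice called WT were Ep300 fl/fl animals without Mx1-Cre, of C57BL/6 background, that received poly(I:C), an inducer of interferon, as young adults some weeks before analysis. The methods do not say at what age or time after poly(I:C) the cells for Myb ChIP-Seq were taken, and neither they nor the labels give the number of mice. Expression was not measured in these samples, and the identity of the cells could not be checked against marker genes.

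Chemokines are small secreted proteins that direct the movement of leukocytes. They are named by the spacing of conserved cysteines near their N-terminus into CC, CXC, CX3C and XC classes, and they act through 7-transmembrane receptors, coupled mainly to Gi proteins, that carry the same class names. In bone marrow, Cxcl12 made by stromal cells retains HSPCs that carry its receptor Cxcr4, whereas Cxcr2 and Ccr2 act in the release of neutrophils and monocytes, and Ccr7 and Ccr9 act in the seeding of the thymus. Myb binds a short sequence that contains AACNG.

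The reference sequence under the strongest summits is given for 3 receptor genes and 3 ligand genes, because these windows carry some of the highest enrichments of their kind or a Myb motif outside a promoter. Each line holds 101 bases of mm10, with the summit at the middle base. Capitals mark the Myb motif, searched on both strands as the word CAACGG, the word CAACTG, the word TAACGG or the word TAACTG, and a line without capitals held none of these words.
Cxcr4, chr1:128591342-128591442, plus strand: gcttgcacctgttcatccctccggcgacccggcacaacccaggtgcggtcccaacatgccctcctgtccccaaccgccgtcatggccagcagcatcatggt
Ccr1, chr9:123964854-123964954, plus strand: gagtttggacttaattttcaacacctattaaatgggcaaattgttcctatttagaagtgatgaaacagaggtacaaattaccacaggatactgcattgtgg
Cxcr5, chr9:44565533-44565633, plus strand: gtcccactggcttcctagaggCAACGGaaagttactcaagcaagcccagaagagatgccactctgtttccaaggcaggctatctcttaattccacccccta
Cx3cl1, chr8:94787837-94787937, plus strand: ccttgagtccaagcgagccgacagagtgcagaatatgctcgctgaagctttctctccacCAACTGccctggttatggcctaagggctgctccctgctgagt
Ccl9, chr11:83577303-83577403, plus strand: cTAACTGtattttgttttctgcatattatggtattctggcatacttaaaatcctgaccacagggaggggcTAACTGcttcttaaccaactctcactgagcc
Ccl3, chr11:83640290-83640390, plus strand: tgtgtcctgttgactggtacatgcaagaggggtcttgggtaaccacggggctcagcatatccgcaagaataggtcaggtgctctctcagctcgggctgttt
The windows at Cx3cl1 and Cxcr5 each held 1 motif and the window at Ccl9 held 2, whereas the windows at Cxcr4, Ccr1 and Ccl3 held none.

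Fold enrichment is the ratio of the Myb pileup to the local IgG background at the summit, with the same small constant added to both. The authors took this value from MACS2. The Myb reads behind each summit were recovered from the fold enrichment and the p-value together. Over all peaks the median summit had 18 reads, with a range from 7 to 130, and 56.1% of the summits had fewer than 20. The peaks at chemokine and chemokine receptor genes likewise had a median of 18 reads, with a range from 10 to 63. Read intervals given below are exact Poisson 95% intervals and cover counting error only. The q-value is given as −log10 q, and 6 of the 61 peaks, or 9.84%, had a q-value above 0.05, against 7.31% of the peaks at all protein-coding genes.

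To ask which chemokine genes had Myb peaks nearby, genes with and without a peak were counted. A peak was present at 29 of the 56 genes, or 51.8% (exact 95% interval, 38.0% to 65.3%). Among all protein-coding genes the share was 52.6%, and the share of the whole family was thus near the background. Within the family the share was higher for receptors. A peak was present at 14 of 19 receptor genes, or 73.7% (48.8% to 90.9%), and at 15 of 37 ligand genes, or 40.5% (24.8% to 57.9%). The receptor share was 33.1 percentage points above the ligand share, with an interval of the difference by the Newcombe method from 5.57 to 53.4 points. The separate intervals of the 2 shares overlapped. All of these intervals count genes rather than replicates and treat genes as independent, although neighbouring genes shared 5 peaks. The difference was given no test.

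**Figure D1:**
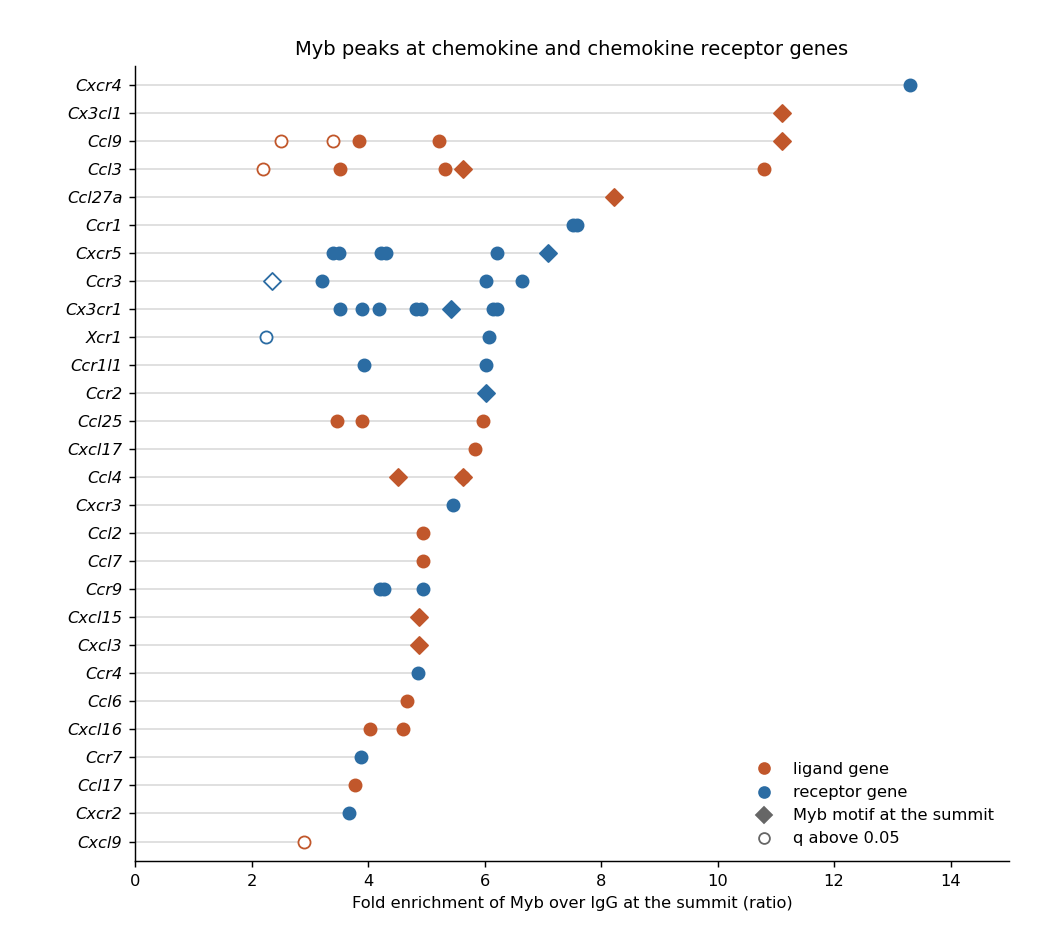
Each point is a Myb peak at a chemokine or chemokine receptor gene, placed by its fold enrichment over IgG (horizontal axis, ratio) in the row of its gene, with ligands and receptors in separate colors, diamonds for a Myb motif at the summit and open symbols for a q-value above 0.05. Genes without a peak, 22 of 37 ligands and 5 of 19 receptors, are not drawn, and of the 14 receptors with a peak 13 are drawn, Ccr2 with 1 of its 2 peaks, and the highest point is that of Cxcr4 at 13.3.

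The shares were also counted by structural class. Among CC genes a peak was found at 8 of 11 receptors and 9 of 23 ligands, and among CXC genes at 4 of 6 receptors and 5 of 12 ligands. Cx3cr1 and its ligand Cx3cl1 both had a peak, and Xcr1 had a peak whereas its ligand Xcl1 had none. More than 1 peak was present at 9 receptor genes (47.4%) and at 5 ligand genes (13.5%), 14 of the 56 in all, against 33.3% of all protein-coding genes. The strength of the peaks differed less. The median fold enrichment was 4.88 for the 36 receptor peaks and 4.67 for the 25 ligand peaks, against 4.48 for peaks at all protein-coding genes. A fold enrichment above 10 was reached by 1 receptor peak and 3 ligand peaks, 6.56% of the 61 peaks, against 4.36% of the peaks at all protein-coding genes.

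Gene length moved with this comparison, because a longer gene has a longer window. The median gene length was 9715 bp for receptors, 3498 bp for ligands and 17425 bp for all protein-coding genes. Within each length class the receptor share was above the ligand share. Among genes of up to 3 kb, 2 of 5 receptors and 5 of 16 ligands had a peak, against 30.6% of all protein-coding genes of that length. From 3 to 10 kb, the counts were 5 of 6 receptors and 7 of 15 ligands, against 41.7%. Above 10 kb, they were 7 of 8 receptors and 3 of 6 ligands, against 60.5%. Per 100 kb of window, receptors had 4.39 peaks (exact Poisson 95% interval, 3.08 to 6.08) and ligands 2.53 (1.64 to 3.74), against 1.70 for all protein-coding genes. The point value of both was thus above that of all protein-coding genes, although the interval of ligands included it, and 13 of the 25 ligand peaks lay in a cluster of 5 genes.

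The windows of chemokine genes were also compared around start sites. A summit within 3 kb of an own start site was present at 13 of the 56 genes, or 23.2% (13% to 36.4%), against 39.9% of all protein-coding genes. They comprised 7 receptors, or 36.8%, among them Cxcr2, Cxcr4, Cxcr5, Ccr4, Cx3cr1 and Cxcr3, and the ligands Ccl3, Ccl4, Ccl6, Ccl9, Ccl25 and Ccl27a, 16.2% of the ligands. Within 10 kb of an own start site, regardless of gene length, a summit was present at 13 of 19 receptors and 13 of 37 ligands, and in all at 46.4% of the 56 genes against 47.3% of all protein-coding genes. Close to start sites the family as a whole was therefore below the background, and at the wider distance it was near it. The interval of the ligand share within 3 kb (6.19% to 32.0%) lay below the background. That of the receptor share (16.3% to 61.6%) included it. The ligands include 4 genes, described below, at which peaks could hardly be called.

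**Figure D2:**
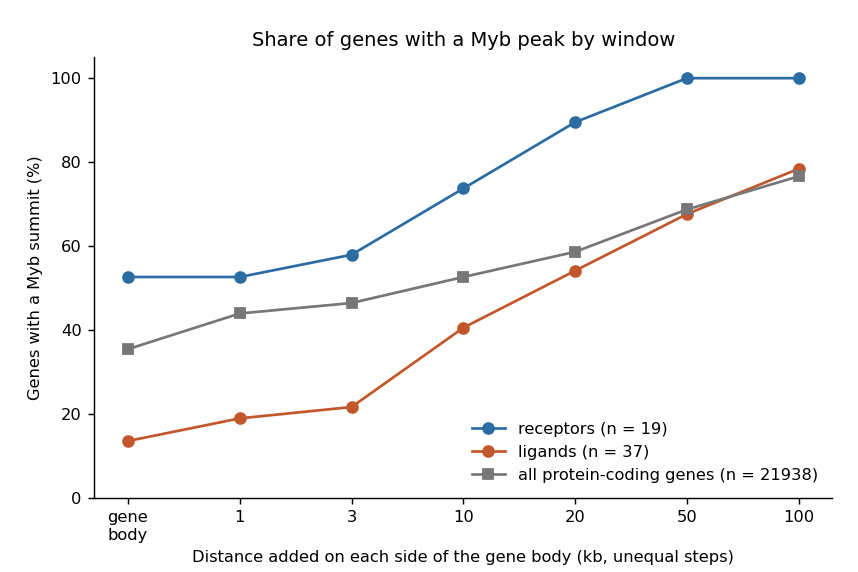
The share of genes with a Myb summit (vertical axis, percent) is plotted against the distance allowed on each side of the gene body (horizontal axis, kb) for receptors, ligands and all protein-coding genes. Receptors lie above ligands at each distance, from 52.6% against 13.5% for the gene body alone to 100% against 78.4% at 100 kb, where all protein-coding genes reach 76.6%.

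The plot of the share against distance shows the same order at each distance. In the gene body alone, 10 of 19 receptors and 5 of 37 ligands held a summit, against 35.4% of all protein-coding genes. At 50 kb each of the 19 receptors and 25 of the 37 ligands had a peak, against 68.7%. Ligand genes were thus below all protein-coding genes up to 20 kb, with 54.1% against 58.6%, and close to them at 50 kb, with 67.6%.

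Of the 66 pairs of a gene and a peak, 25 had the summit inside the gene, 21 upstream and 20 downstream. Introns, UTRs and start sites were assigned over all annotated genes. Within 3 kb of any annotated start site lay 30 of the 61 summits, or 49.2%. The share was 64.6% for the peaks at all protein-coding genes by the same window, and 57.6% for all peaks. A further 4 were in 3′ UTRs, 7 in introns and 20 in intergenic sequence. The nearest protein-coding start site belonged to a chemokine or chemokine receptor gene for 40 peaks and to another gene for 21. For those 21 peaks proximity to a chemokine gene does not identify the gene that the site acts on.

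Among the receptors, Cxcr4, which retains HSPCs in the marrow, had the strongest peak. Its window held 1 peak, at chr1:128590301-128592928, with a fold enrichment of 13.3, a −log10 q of 37.8 and 63 reads (48.4 to 80.6). The peak was 2628 bp wide, its summit lay 898 bp downstream of an annotated start site in an intron of Cxcr4, and 65.3% of the bases of the printed window were G or C. No other of the 61 peaks had as many reads, although the interval overlapped that of Cx3cl1, with 47 reads (34.5 to 62.5).

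Cxcr4 also had peaks beyond its window. Of all peaks, 9 had a start site of Cxcr4 as the nearest protein-coding start site, and 359 of the 21938 protein-coding genes, or 1.64%, had as many. The strongest of these lay 23.2 kb upstream of the gene start at chr1:128614691-128615879, with a fold enrichment of 15.7 and 59 reads (44.9 to 76.1), so it was as strong as the peak inside the gene within counting error. A further upstream peak, at 16 kb, had a fold enrichment of 9.62 and 38 reads (26.9 to 52.2) and held a Myb motif. A downstream peak at 21.9 kb had a fold enrichment of 7.37 and 37 reads. The remaining 5 had 9 to 25 reads and fold enrichments from 3.22 to 5.06. These peaks were looked up after the values in the window had been seen.

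Cxcl12, the ligand of Cxcr4, had no peak in its window. The nearest peak lay 250173 bp from the gene, with a fold enrichment of 6.40 and 20 reads (12.2 to 30.9), and Cxcl12 had the nearest protein-coding start site. Only Ccl20 and Ccl21b had no peak as near, so the receptor of this pair had the strongest peak of the family and the ligand had none close by. The labels name no selection of stromal cells.

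Cxcr2, a receptor of neutrophils for several CXC ligands, had 1 peak, at chr1:74151251-74151640 and 2654 bp upstream of its start site. Its fold enrichment was 3.67, with a −log10 q of 2.51 and 13 reads (6.92 to 22.2), so it was among the weaker peaks. Its neighbour Cxcr1 had none. Ccr7, which guides lymphoid cells to the thymus and lymph nodes, had 1 peak 7534 bp upstream of its start site, at chr11:99162437-99162835, with a fold enrichment of 3.88, a −log10 q of 2.51 and 12 reads (6.20 to 21).

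Cxcr5, a receptor that guides B cells into follicles, had 6 peaks. The strongest, at chr9:44565329-44565965, lay 3706 bp upstream of the gene, with a fold enrichment of 7.09, a −log10 q of 10.4 and 25 reads (16.2 to 36.9), and its summit held the motif CAACGG printed above. A second peak, at chr9:44561460-44562509, lay 18 bp upstream of the outermost annotated start site. It had a fold enrichment of 6.21, a −log10 q of 10.2 and 31 reads (21.1 to 44.0). The intervals of these 2 peaks overlapped. The third upstream peak, at chr9:44567121-44568159, had a fold enrichment of 3.50, a −log10 q of 4.28 and 26 reads over a background of 5 reads at IgG depth. Inside the annotated gene body were chr9:44514974-44515487, with a fold enrichment of 4.31, a −log10 q of 3.73 and 16 reads, and chr9:44537855-44538089, with 3.39, 2.37 and 16 reads in the same order. The last peak, at chr9:44510274-44510515, had a fold enrichment of 4.22, a −log10 q of 3.94 and 17 reads, and its nearest protein-coding start site was that of Bcl9l. Another annotated start site of Cxcr5 lay inside this gene body, 11435 bp downstream of the summit at chr9:44537855-44538089. With the shorter RefSeq gene body, 14658 bp instead of 50091 bp, 2 of the 6 peaks remained in the window. Neither of the 2 strongest peaks was among them, so their place just upstream of Cxcr5 holds for the GENCODE gene body only.

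Cx3cr1, a receptor of monocytes and their precursors, had 8 peaks, the highest number in the family, in a GENCODE gene body of 168264 bp that spans other genes. Only 2 of the 8 had Cx3cr1 as the nearest protein-coding gene, and with the RefSeq gene body of 19614 bp the window held 2. The peak at chr9:120067888-120068587 had a summit in an exon of Cx3cr1, 74 bp upstream of an annotated start site inside the gene. Its fold enrichment was 5.42, with a −log10 q of 5.75 and 17 reads (9.90 to 27.2), and it held a Myb motif. The other near peak, at chr9:120058637-120059081, lay 9441 bp downstream of an annotated start site with a fold enrichment of 4.83, a −log10 q of 4.49 and 16 reads. The 6 remaining peaks were nearest to Csrnp1 or Wdr48. At Csrnp1, chr9:119978089-119979146 had a fold enrichment of 6.21, a −log10 q of 10.2 and 31 reads, chr9:119983249-119983819 had 6.14, 7.86 and 23 in the same order, and chr9:119976884-119977562 had 3.52, 2.85 and 17. At Wdr48, chr9:119895131-119895393 had a fold enrichment of 4.91, a −log10 q of 5.42 and 20 reads, chr9:119925261-119925813 had 4.18, 3.20 and 15, and chr9:119899275-119899985 had 3.90, 3.47 and 19.

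Most CC receptor peaks lay in a cluster of 8 receptor genes on chromosome 9 that begins with Ccr9. Of these genes 7 had a peak, all but Cxcr6, and the cluster held 17 distinct peaks. Ccr2, a receptor of monocytes for Ccl2, had 2 peaks by the rule, of which 1 lay in its 3′ UTR, at chr9:124112524-124113132. The fold enrichment of this peak was 6.03, with a −log10 q of 6.19 and 18 reads (10.7 to 28.4), and the window around the summit held the motif CAACTG. Ccr2 had no summit within 3 kb of its own start site.

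Ccr1, a receptor of myeloid cells, had 2 peaks of nearly equal enrichment. In its intron, chr9:123964743-123965128 had a fold enrichment of 7.59, a −log10 q of 10.1 and 23 reads (14.6 to 34.5), and downstream of the gene by 4069 bp, chr9:123957749-123959580 had 7.51, 11.8 and 28 reads (18.6 to 40.5). Beyond the window, 10 more peaks had Ccr1 as the nearest protein-coding gene, 12 in all, with fold enrichments of up to 9.86 and distances of up to 36.6 kb, and 0.770% of all protein-coding genes had as many. Its paralog Ccr1l1 had 2 peaks upstream, at chr9:123984498-123985526 with a fold enrichment of 6.03, a −log10 q of 6.19 and 18 reads, and at chr9:123986145-123986513 with 3.92, 2.51 and 14 reads. With the RefSeq gene body Ccr1l1 had 3 peaks.

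Ccr3, the eotaxin receptor of eosinophils, had 4 peaks outside its gene body. The strongest lay 7392 bp downstream at chr9:124038802-124039212, with a fold enrichment of 6.65, a −log10 q of 8.06 and 20 reads (12.2 to 30.9). Upstream of the gene by 5554 bp, chr9:124016075-124016599 had a fold enrichment of 6.03, a −log10 q of 6.19 and 18 reads. The other 2 were weak, with a fold enrichment of 3.21, a −log10 q of 1.33 and 11 reads at chr9:124037307-124037722 and with 2.35, 0.856 and 17 reads at chr9:124037919-124038723, the latter with a q-value above 0.05.

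Ccr9, which guides progenitors to the thymus, had 3 peaks by the rule, all inside a GENCODE gene body of 105892 bp and none nearest to Ccr9. At chr9:123716988-123717758 the fold enrichment was 4.95, with a −log10 q of 4.67 and 18 reads (10.7 to 28.4), at chr9:123688277-123688726 it was 4.27, with 2.96 and 14 reads, and at chr9:123701863-123702161 it was 4.20, with 3.59 and 18 reads. Their nearest protein-coding start sites were those of Lztfl1 and Slc6a20a. With the RefSeq gene body of 16247 bp Ccr9 had no peak. The only peak with Ccr9 as the nearest protein-coding gene lay 20.8 kb upstream, with a fold enrichment of 6.79 and 23 reads (14.6 to 34.5). Xcr1, a receptor of cross-presenting dendritic cells, had 2 peaks that were both nearest to Fyco1. At chr9:123852045-123852903 the fold enrichment was 6.08, with a −log10 q of 7.21 and 20 reads (12.2 to 30.9), and at chr9:123850693-123851781 it was 2.24, with 0.782 and 22 reads over a background of 7 reads at IgG depth.

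The remaining receptors with a peak were Cxcr3, a receptor of activated T cells, and Ccr4, a receptor of skin-homing T cells. Cxcr3 had 1 peak 357 bp from its start site, with a fold enrichment of 5.46 and 20 reads, and Ccr4 had 1 peak 1630 bp downstream of its start site, with 4.86 and 15 reads. The receptors without a peak were Cxcr1, Cxcr6, Ccr6, Ccr8 and Ccr10. The nearest peaks to them lay 14640 bp (Ccr10) to 40450 bp (Cxcr1) from the gene, and each except that of Cxcr1, which was nearest to Cxcr2, was nearest to a gene outside the family.

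**Figure D3:**
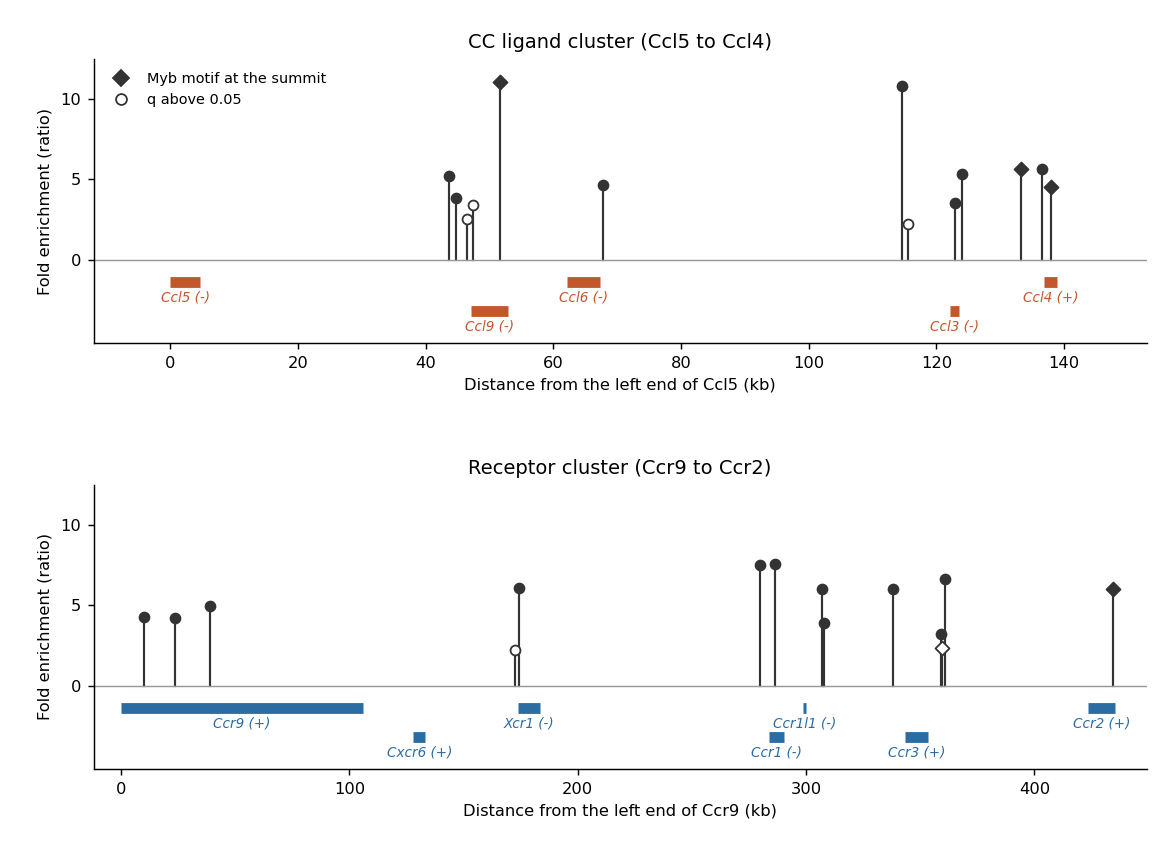
Myb peaks are placed by position (horizontal axis, kb from the left end of the first gene) and fold enrichment (vertical axis, ratio) along the receptor cluster of chromosome 9 and the Ccl5 to Ccl4 ligand cluster of chromosome 11, with gene bodies drawn below, diamonds for a Myb motif at the summit and open symbols for a q-value above 0.05. The highest point is that of Ccl9 at 11.1 in the ligand cluster, where 13 peaks are drawn, and that of the Ccr1 intron at 7.59 in the part of the receptor cluster drawn, from Ccr9 to Ccr2.

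Ligand peaks were concentrated in a cluster of 5 CC ligand genes on chromosome 11, from Ccl5 to Ccl4, that spans 139 kb. It held 13 of the 25 ligand peaks, and Ccl9, Ccl6, Ccl3 and Ccl4 had peaks, as the map of both clusters shows. Ccl5, in the same cluster, had none within 10 kb, and its nearest peak lay 13574 bp away with a fold enrichment of 3.52. The other large ligand clusters had few peaks. The cluster of 6 genes from Ccl2 to Ccl1 on the same chromosome held 1 peak, shared by Ccl2 and Ccl7, with a fold enrichment of 4.95, and the cluster of 5 genes from Cxcl5 to Cxcl2 on chromosome 5 held 1 peak, shared by Cxcl3 and Cxcl15, with 4.87.

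Ccl9, a CC ligand for Ccr1 made by myeloid cells, had 5 peaks. The strongest, at chr11:83576744-83578712, had a summit in an intron of Ccl9, 211 bp upstream of an annotated start site inside the gene. Its fold enrichment was 11.1, with a −log10 q of 23.9 and 44 reads (32.0 to 59.1), and it held the pair of TAACTG words printed above. Downstream of the gene were chr11:83569002-83569855, with a fold enrichment of 5.21, a −log10 q of 5.90 and 20 reads, and chr11:83570380-83570679, with 3.84, 2.14 and 11 reads. The last 2, at chr11:83572905-83573407 and chr11:83571791-83572769, had fold enrichments of 3.40 and 2.51, −log10 q of 1.28 and 0.793, and 10 and 15 reads, and their q-values were above 0.05. The peak near this inner start site had more reads than each of the others, with an interval that did not overlap that of the next peak (12.2 to 30.9).

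Ccl3, an inflammatory chemokine also described as an inhibitor of HSPC proliferation, had 5 peaks, and the strongest was not at its start site. At chr11:83639507-83641094, 7504 bp downstream of the gene, the fold enrichment was 10.8, with a −log10 q of 22.5 and 41 reads (29.4 to 55.6), and the nearest protein-coding start site was that of Rpl9-ps1. The peak 388 bp upstream of the start site, chr11:83649093-83649928, had a fold enrichment of 5.32, a −log10 q of 5.20 and 18 reads (10.7 to 28.4). Inside the gene, chr11:83648536-83649011 had a fold enrichment of 3.51, a −log10 q of 1.72 and 11 reads. A weak downstream peak, chr11:83641313-83641673, had 2.20, 0.392 and 13 reads, with a q-value above 0.05. The fifth peak, at chr11:83658662-83659407, with a fold enrichment of 5.63, a −log10 q of 6.07 and 17 reads, lay 9631 bp from Ccl3, just inside the window, and was shared with Ccl4.

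Ccl4, an inflammatory CC chemokine like Ccl3, had 3 peaks with fold enrichments from 4.51 to 5.63 and 16 to 17 reads, of which 1 lay 315 bp upstream of its start site. With the RefSeq gene body, which is longer, 7 peaks were assigned to Ccl4. Ccl6, another myeloid CC ligand, had 1 peak 481 bp upstream of its start site, with a fold enrichment of 4.67 and 14 reads.

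Cx3cl1, the membrane-bound ligand of Cx3cr1, had 1 peak, at chr8:94787340-94788362, with a fold enrichment of 11.1, a −log10 q of 26.2 and 47 reads (34.5 to 62.5). It lay 5460 bp downstream of the gene and 15662 bp from the start site, which was still the nearest protein-coding one, and the summit window printed above held the motif CAACTG. Its neighbour Ccl17, a ligand of Ccr4, had 1 peak with a fold enrichment of 3.77, and Ccl22, the third gene of the cluster, had none, with its nearest peak 11488 bp away. Ccl27a, a skin chemokine, had 1 peak 5 bp from its start site, at chr4:41773728-41774616, with a fold enrichment of 8.22, a −log10 q of 12.2 and 25 reads (16.2 to 36.9), and the motif TAACGG within the window.

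Among the remaining ligands with peaks, Ccl25, the ligand of Ccr9, had 3, with fold enrichments of 5.98, 3.89 and 3.47, of which 2 were nearest to Elavl1. Cxcl17 had 1 peak nearest to Lipe (5.83), and Cxcl16, the ligand of Cxcr6, had 2 nearest to Med11 (4.60 and 4.03). Cxcl9, an interferon-induced ligand of Cxcr3, had 1 peak nearest to Art3 (2.89), with a q-value above 0.05. The peaks nearest to Elavl1, Lipe, Med11 and Art3 lay close to start sites of these genes outside the family. The 2 nearest to Elavl1, at 945 and 2579 bp, lay almost as near to a start site of Ccl25, at 1069 and 2703 bp. The third Ccl25 peak (3.89) lay 75 bp from a start site of Ccl25.

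The 22 ligand genes without a peak were Ccl1, Ccl5, Ccl8, Ccl11, Ccl12, Ccl19, Ccl20, Ccl21a, Ccl21b, Ccl22, Ccl24, Ccl26, Ccl27b, Ccl28, Cxcl1, Cxcl2, Cxcl5, Cxcl10, Cxcl12, Cxcl13, Cxcl14 and Xcl1. They include the lymphoid and stromal ligands Ccl19, Ccl21a, Ccl21b, Cxcl12 and Cxcl13 and the neutrophil attractants Cxcl1, Cxcl2 and Cxcl5. Related ligands did have peaks. Cxcl3 and Cxcl15, in the cluster of Cxcl1, Cxcl2 and Cxcl5, shared a peak with a fold enrichment of 4.87, and Ccl25, the ligand of Ccr9, had 3 peaks. The nearest miss was Cxcl5, with a peak 10640 bp away that had a fold enrichment of 5.05 and 27 reads and was nearest to Pf4. In the windows of Ccl19, Ccl21a and Ccl21b, 0.223%, 0.233% and 0.248% of the 75-base words occurred once in the genome, and in that of Ccl27b 0%. The authors kept reads of high mapping quality only, so peaks at these 4 genes could hardly be called. Without these genes 15 of 33 ligands, or 45.5% (28.1% to 63.6%), had a peak, and the receptor share was 28.2 points higher.

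The comparison of receptors with ligands was also taken without the clusters. Without the receptor cluster of chromosome 9, 7 of 11 receptors, or 63.6%, had a peak, 23.1 points above the ligands. The number of receptor peaks per 100 kb was then 3.75 instead of 4.39. Without the cluster from Ccl5 to Ccl4, 11 of 32 ligands, or 34.4%, had a peak, and the number of ligand peaks per 100 kb was 1.36 instead of 2.53. As a point value, the ligand density was below the 1.70 of all protein-coding genes without this cluster of 5 genes and above it with them. The interval with the cluster (1.64 to 3.74) included 1.70, and no interval was computed without it.

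**Figure D4:**
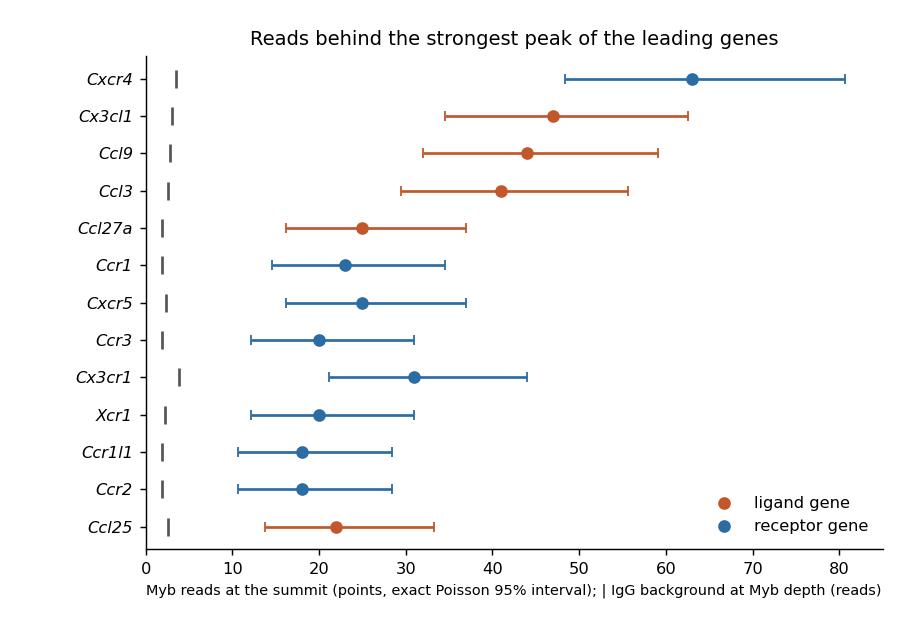
Myb reads at the summit of the strongest peak are plotted as points with exact Poisson 95% intervals (horizontal axis, reads) for genes with the highest fold enrichments, in descending order for the genes drawn in the plot of all peaks, with ligands and receptors in separate colors and a tick for the IgG background brought to the depth of the Myb library. Cxcr4 has 63 reads, Cx3cl1 has 47, and the intervals of the genes from Ccl27a downward overlap each other.

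Sequence at the summits was compared with that of all peaks. A Myb motif lay within 50 bp of 10 of the 61 summits, or 16.4% (8.15% to 28.1%), against 16.7% of all summits. It was present at 6 of 25 ligand summits (24%, 9.36% to 45.1%) and at 4 of 36 receptor summits (11.1%, 3.11% to 26.1%), with intervals that overlapped. The 10 peaks with a motif had a median fold enrichment of 5.83 and the 51 without 4.60. The same order was present over all peaks, with 4.86 and 4.47. Of the 4 words, TAACTG was present at 3 ligand summits, TAACGG at 2 ligand summits and CAACGG at 2 receptor summits, and CAACTG was present at 1 ligand and 2 receptor summits.

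Words of other factors were counted in the same windows on both strands. The RUNX words TGCGGT and TGTGGT were present at 15 of the 61 summits, or 24.6% (14.5% to 37.3%), against 12.2% of all summits, and their share was 24% for ligands and 25.0% for receptors. The windows printed above for Cxcr4, Ccr1 and Ccl9 each held such a word. The ETS word GGAAGT was present at 3 summits (4.92%, 1.03% to 13.7%), against 10.5%. The GATA words AGATAA and TGATAA (13.1% against 13.8%), the CEBP word TTGCNNAA (9.84% against 6.16%), the NF-kB motif (1.64% against 2.36%) and the IRF word GAAANNGAAA (3.28% against 1.59%) were present at shares whose intervals included those of all summits. Windows without any CpG made up 34.4% of the 61, against 22.8% of all summits, beside the lower promoter share, and the part of base composition in the word counts was not tested.

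To place the family in its pathway, the same window was applied to 33 other genes of chemokine signaling, listed with earlier results known. A peak was present at 31 of them, or 93.9%, against 52.6% of all protein-coding genes. Of the 33 genes 23 were longer than 10 kb, a length at which 60.5% of all protein-coding genes had a peak, and the list was not matched by length or expression. All 15 genes of G proteins and their effectors, which carry the signal from the receptor to the cytoskeleton, had peaks, 69 in total, and 14 of the 15 were longer than 10 kb (60.5% over all genes of that length), with the highest fold enrichments at Gnb2 (13.6, 49 reads), Prex1 (13.1, 67 reads), Elmo1 (11.9, 49 reads) and Vav1 (11.6, 44 reads). All 8 genes of receptor desensitization, 5 of them longer than 10 kb, had peaks, 29 in total, against the same shares of 52.6% and 60.5%. Among these Grk2, a kinase that phosphorylates activated receptors including Cxcr4, reached 15.7-fold enrichment on 73 reads (57.2 to 91.8) at a summit with a Myb motif, Arrb1 reached 12.6 on 50 reads, and Rgs2 reached 12.4 on 41 reads.

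Of the 5 atypical receptor genes, which bind chemokines without G protein signaling, 4 had a peak. Ccrl2, next to the receptor cluster on chromosome 9, reached 11.1-fold enrichment on 44 reads (32.0 to 59.1) at 92 bp from its start site. The others ranged from 3.22 to 4.15, and Ackr3, the second receptor of Cxcl12, had none. The platelet chemokine genes Pf4 and Ppbp shared their peaks, the stronger of which had a fold enrichment of 5.05 and 27 reads and lay 171 bp from a start site of Pf4. Of the genes for ligand processing and binding, Dpp4, a protease that cleaves Cxcl12, had a fold enrichment of 5.95, Mif 5.40, and Cd74 had no peak.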

How the data were processed

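Lin- cells of WT mice were used for 1 Myb and 1 IgG precipitation, and groups follow the sample titles. Per the authors' methods and processing notes, reads were trimmed with Cutadapt 1.15, aligned to mm10 with BWA 0.7.13, freed of duplicates with Picard, filtered for mapping quality above 30 and the mm10 blacklist, and peaks were called with MACS2 2.1.1.20160309 against IgG and kept by overlap between pseudo-replicates. The deposited peak list of the Myb library was the only file. It gives a fold enrichment (ratio of pileup to background, with a small constant added to both) and p- and q-values as −log10, all computed by the authors. The deposited score, which restates the p-value up to a cap, was not used. The total depth of the libraries is not given in the sources used here.

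Summits were assigned to GENCODE vM21 genes, and positions are 1-based in mm10. Reads were recovered from fold enrichment and p-value, with the Myb pileup scaled by 0.769. Whole reads fitted 100% of the rows within 0.001 in −log10 p, against 1.13% after the fold enrichment was moved at random, and the recovery was tested on simulated data. Shares have exact (Clopper-Pearson) and reads exact Poisson 95% intervals, for counting error only. Python 3.11.15, scipy 1.17.1, pandas 2.3.3 and pysam 0.24.0 were used. Sequences are those of the GRCm38 reference from RefSeq. Full values are given for the 12 genes with the highest fold enrichment of their strongest peak and for 8 genes known in marrow and homing (Cxcr4, Cxcl12, Cxcr2, Ccr2, Cx3cr1, Ccr7, Ccr9 and Ccl3). For 1 gene, and for 1 peak of Ccr2, values are not reported here, although both stay in the counts. Genes and lists were chosen with earlier results of these data known. Alternatives were the q-value threshold, the window, the assignment rule, the gene models, the motif and its window. Leaving out clusters or genes in repeated sequence, RefSeq gene bodies and a q-value of at most 0.05 were added after the values were seen.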

Additional observations from a re-analysis of the deposited data

How the results depend on the processing

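With 1 Myb library, no replicate could be left out. No paired analysis was possible because the Myb and IgG samples had 1 library each and no result came from a test. Of 69 alternative values, 55 were classed as the same, 14 as moved and 0 as reversed. The classes were broad, since 20 genes with a peak at a −log10 q of at least 5, against 29 genes by the main rule, counted as the same. The receptor share was above the ligand share under each of the alternatives. With a −log10 q of at least 5, the peaks numbered 29 and their median fold enrichment was 6.03. In the gene body alone, 15 genes, 5 of them ligands, held 25 peaks. With 3 kb on each side, 19 genes had a peak, of which 8 were ligands. With 50 kb, the counts were 44 genes, 25 ligands and 142 peaks. Assignment to the nearest coding start site alone left 9 ligand genes and 40 peaks. The motif share was 32.8% within 100 bp, against 30.0% of all summits, and 55.7% with the looser AACNG, against 54.3%. It was 9.84% within 25 bp, against 8.68%, and 27.6% with a −log10 q of at least 5, against 19.6%. RefSeq gene bodies gave 28 genes, 48 peaks and a difference of 27.9 points. Few reads per summit limit the ranking of peaks, and Myb binding without a called peak could not be seen.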
